A study of Homo sapiens with 6 samples.

Results

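The enzymes that place and remove chemical marks on histones and DNA were compared between NOZ-R and NOZ, by the transcript levels of 80 genes among the 63140 in the deposited count table. The genes were chosen by a symbol pattern, which uses no values, but with earlier results of these data known. They are lysine demethylases (KDM), lysine methyltransferases (KMT, SETD, EZH1 and EZH2), lysine acetyltransferases (KAT), histone deacetylases (HDAC), sirtuins (SIRT1 to SIRT7), arginine methyltransferases (PRMT), DNA methyltransferases (DNMT1, DNMT3A, DNMT3B and DNMT3L) and the TET dioxygenases. Of these, 39 were classed as writers of a mark and 41 as erasers. NOZ is an established cell line from a human gallbladder carcinoma. NOZ-R was derived from it by stepwise raising of the dose of gemcitabine, a nucleoside analogue used in chemotherapy, and is resistant to that drug. For NOZ and for NOZ-R there were 3 libraries of polyadenylated RNA, replicates 1 to 3, with 14136037 to 19244923 counts per library. Nothing in the labels tells if replicates came from separate cultures, if NOZ-R is 1 clone, or if gemcitabine was present at harvest. The p-values therefore reflect the spread among 3 libraries of a line, which may be technical.

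As background, DNA methyltransferases add methyl groups to cytosine, mostly where it is followed by guanine, and TET enzymes oxidise methylcytosine toward its removal. Histone methyltransferases act on single lysine or arginine residues, and what a mark accompanies depends on the residue: methylation of lysine 27 of histone H3 (H3K27) by the Polycomb enzymes EZH1 and EZH2 accompanies silenced genes, whereas methylation of lysine 4 (H3K4) accompanies promoters and enhancers. Acetyltransferases and deacetylases act in opposite directions on lysine acetylation, which accompanies open chromatin. Transcript levels do not measure enzyme activity or the marks themselves, which were not assayed.

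The libraries carried the epithelial markers of the labelled cell type, with keratin KRT19 between 796 and 1021 CPM (counts relative to library size, scaled by TMM factors) in all 6, while the biliary factor SOX17 had 0 counts in every library. The summed level of 8 biliary epithelial markers was 2539 to 3001 CPM in NOZ and 3459 to 3546 CPM in NOZ-R, most of it from keratins. KRT7, KRT8, KRT18 and MUC1 were called higher in NOZ-R and EPCAM lower, at a log2 fold change of -0.56. KRT19 and SOX9 did not pass. MUC1 was low, at 1.30 to 1.56 CPM in NOZ. All 6 libraries had low sums of fibroblast markers, 2.75 to 3.32 CPM in NOZ and 3.10 to 4.22 CPM in NOZ-R over 6 genes, with COL1A2, DCN, LUM and THY1 at 0 in every NOZ library. In NOZ-R, DCN had counts of 19, 12 and 6 and LUM of 5, 6 and 14, at least 13.3-fold and 8.96-fold higher against a floor of 3 counts over the NOZ libraries, while COL1A1, at a log2 fold change of -0.54, did not pass. The 6 leukocyte and endothelial markers summed to 3.10 to 4.14 CPM in NOZ and 9.34 to 10.3 CPM in NOZ-R, where PECAM1 made up most of the sum and CD68 had at most 1 count in a library. Their part in the results on the enzymes was not tested. Within NOZ, replicate 2 stood apart in GC content: the rank correlation across genes between a library's deviation from its line's mean and transcript GC content was -0.503 there, against 0.316 and 0.370 for replicates 1 and 3, and 0.290, -0.0571 and -0.213 in the NOZ-R libraries.

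The question was which of these enzymes differed between the resistant and the parental line, and whether writers and erasers moved in opposite directions. TET2, which oxidises methylcytosine, showed the largest rise and DNMT3B, which methylates unmethylated DNA, the largest fall, so the enzymes of DNA methylation stood at both ends of the order. EZH2 and the H3K4 demethylase KDM1A fell, and the arginine methyltransferase PRMT6, the demethylases KDM8, KDM4D and KDM1B and the acetyltransferase KAT2B rose. Each class, writers and erasers, held genes that moved each way. Of the 80 genes, 73 had enough counts to be tested, and 43 of these passed (edgeR's quasi-likelihood test, Benjamini-Hochberg adjusted p below 0.05), 23 higher and 20 lower in NOZ-R. Their share of 58.9% lies near the background, since 60.2% of all 14386 genes tested passed, 30.4% higher and 29.8% lower. The median log2 fold change was -0.01, the same as that of all genes tested, and the median of its absolute size was 0.30, against 0.39 for all genes tested. The changes were mostly small: 3 genes, TET2, KDM8 and DNMT3B, passed with an estimated change of at least 2-fold, where 16.5% of all genes tested did so. In a test against a 2-fold change itself, TET2 remained called and KDM8 had an unadjusted p below 0.05 without passing the adjustment.

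Of the 37 writers tested, 12 were higher, 12 lower and 13 did not pass, with a median log2 fold change of 0.08 and a range from -1.13 to 0.97. Of the 36 erasers tested, 11 were higher, 8 lower and 17 did not pass, with a median of -0.03 and a range from -0.63 to 1.59. The share called was 64.9% of writers and 52.8% of erasers, against 60.2% of all genes tested (30.4% higher and 29.8% lower). The split depended on the scaling. With library size as the only scaling, which moved the median of all genes tested from -0.01 to -0.14, the writers were higher in 9 and lower in 14 cases and the erasers in 9 and 16, and after a correction for GC content the counts were 11 and 15 for writers and 10 and 16 for erasers. All genes tested shifted the same way, with 3316 higher and 5468 lower by library size only, and 3990 and 5211 after GC correction. Exons of other annotated genes overlapped those of 36 members. The strand setting was not given, so it is not known if reads from opposite strands were told apart. Overlap on the same strand, which strand cannot resolve, covered 5599 exonic bases of KMT2A and 1193 of HDAC8, among others. Of the 40 tested members free of any exon overlap, 14 were higher and 13 lower (67.5% called, against 60.2% of all genes tested).

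**Figure D1:**
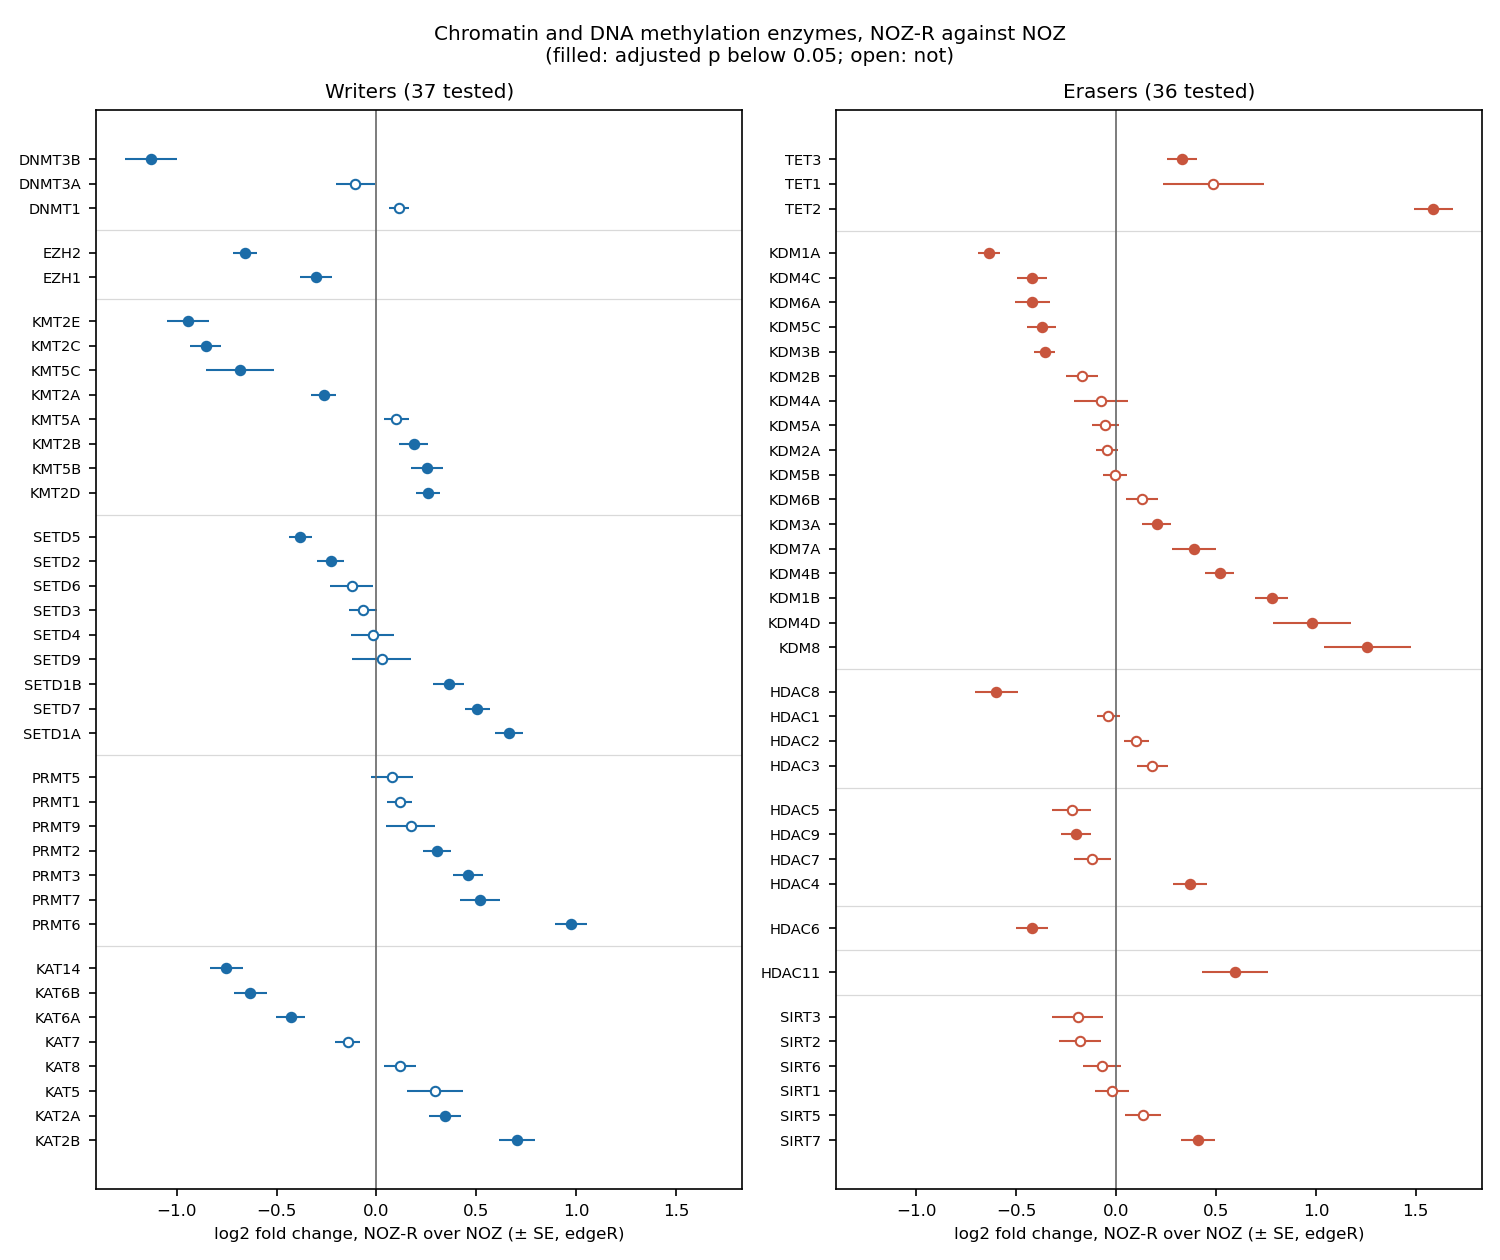
Log2 fold change, NOZ-R over NOZ, of the 73 tested members (points, bars ± SE from edgeR), by family, writers on the left and erasers on the right, filled where the adjusted p was below 0.05. Values run from -1.13 for DNMT3B to 1.59 for TET2, and each class has members on both sides of 0.

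Promoter sequence is shown for 4 of the genes whose change the results turn on, of which 2 rose (TET2 and PRMT6) and 2 fell (EZH2 and KDM1A). Each is the 250 bases before the RefSeq start on GRCh38.p14, written 5′ to 3′ on the gene's strand, with capitals for the motifs GGGCGG (GC box), CCAAT (the NF-Y box) and TTCCCGC (E2F-like) on either strand. All 4 starts lay within 30 bases of the gene start in GENCODE.
TET2, chr4:105145625-105145874, plus strand: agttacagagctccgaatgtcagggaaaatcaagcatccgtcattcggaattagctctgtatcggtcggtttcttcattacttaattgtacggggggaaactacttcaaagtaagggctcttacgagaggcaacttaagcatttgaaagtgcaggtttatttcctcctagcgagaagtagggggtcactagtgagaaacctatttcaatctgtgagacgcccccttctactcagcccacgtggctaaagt
PRMT6, chr1:107056424-107056673, plus strand: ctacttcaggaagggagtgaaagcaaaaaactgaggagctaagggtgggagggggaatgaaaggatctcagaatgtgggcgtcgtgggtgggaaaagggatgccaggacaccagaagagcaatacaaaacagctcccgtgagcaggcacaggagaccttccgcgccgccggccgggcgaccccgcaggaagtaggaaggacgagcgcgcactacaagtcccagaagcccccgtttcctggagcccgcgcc
EZH2, chr7:148884292-148884541, minus strand: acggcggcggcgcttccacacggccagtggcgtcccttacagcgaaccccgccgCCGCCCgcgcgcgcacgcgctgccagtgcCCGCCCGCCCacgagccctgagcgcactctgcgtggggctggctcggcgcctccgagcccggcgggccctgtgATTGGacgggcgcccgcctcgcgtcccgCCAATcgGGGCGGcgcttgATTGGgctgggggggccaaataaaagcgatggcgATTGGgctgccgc
KDM1A, chr1:23019218-23019467, plus strand: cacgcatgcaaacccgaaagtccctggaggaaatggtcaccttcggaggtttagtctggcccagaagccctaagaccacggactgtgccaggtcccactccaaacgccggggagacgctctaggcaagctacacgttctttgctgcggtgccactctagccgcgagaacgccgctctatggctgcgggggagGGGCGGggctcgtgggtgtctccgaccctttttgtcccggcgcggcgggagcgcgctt
The EZH2 stretch held 38 CpG dinucleotides, 4 GC boxes and 4 CCAAT boxes, and that of KDM1A 23 CpG and 1 GC box. The TET2 stretch held 10 CpG and that of PRMT6 16, and none of the 3 motifs was found in either of these 2 stretches. With the 50 bases after the start included, TET2 had 1 GC box.

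Over windows of 300 bases that run 50 bases past the start, found for 73 of the 80 genes by symbol, the median was 29 CpG dinucleotides and 66.0% GC, against 14 and 58.3% over all 27305 RefSeq promoters. A GC box was present in 17 of the 21 windows of genes that rose and in 12 of the 19 of genes that fell, against 44.6% of all promoters. The CCAAT box was present in 3 of 21 and 9 of 19, against 35.7%, and the E2F-like motif in 3 and 1, against 6.56%. Of the 28 windows of tested genes not called, 17 held a GC box, 10 a CCAAT box and 2 the E2F-like motif. Over all 73 windows, 64.4% held a GC box. The cyclic AMP response motif TGACGTCA was found in 1 of the 73 windows and in 1.98% of all promoters. All motifs were sought on both strands, and GGGCGG and TTCCCGC can share bases with each other. These counts describe letters in the windows, and the RefSeq start lay within 1000 bases of the GENCODE gene start for 57 of the 73.

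The enzymes of DNA methylation differed in opposite directions at DNMT3B and TET2. DNMT3B (chromosome 20, 32762385 to 32809356, GRCh38), a de novo methyltransferase, measured 15.3, 16.6 and 15.6 CPM in NOZ and 7.85, 8.05 and 5.77 CPM in NOZ-R. All 3 NOZ libraries were above all 3 NOZ-R libraries, a 2.18-fold fall (log2 fold change -1.13 ± 0.129 SE, edgeR adjusted p = 5.07e-06). TET2 (chromosome 4, 105145875 to 105279816) measured 8.84, 9.97 and 8.53 CPM in NOZ and 27.3, 28.4 and 26.7 CPM in NOZ-R. The lines did not overlap and replicates of a line lay close together, a 3.01-fold rise (log2 fold change 1.59 ± 0.0961 SE, edgeR adjusted p = 9.32e-09). The maintenance methyltransferase DNMT1, which copies methylation after replication, was the most abundant of the 3 DNA methyltransferases per length and measured 520.1, 484 and 514 CPM in NOZ and 566, 549.8 and 525 CPM in NOZ-R (log2 fold change 0.11 ± 0.0516 SE, edgeR adjusted p = 0.0740). It did not pass, although its libraries did not overlap either, as was so for 65.3% of all genes tested and 49 of the 73 members. DNMT3A, the other de novo enzyme, measured 26.8, 23.9 and 26.3 CPM in NOZ and 25.9, 20.8 and 24.9 CPM in NOZ-R and did not pass, with overlapping libraries (log2 fold change -0.11 ± 0.0964 SE, edgeR adjusted p = 0.364). DNMT3A was called lower after GC correction and after removal of chromosome medians, at -0.28 in the latter. TET3 measured 33.5, 37.9 and 34.7 CPM in NOZ and 43.2, 46.2 and 44.1 CPM in NOZ-R, a rise in each library (log2 fold change 0.33 ± 0.0758 SE, edgeR adjusted p = 0.00201), a call lost in both limma fits of FPKM and after removal of chromosome medians. TET1 was the lowest of the 3 TET genes, at 2.35, 2.94 and 1.49 CPM in NOZ and 2.60, 3.22 and 3.89 CPM in NOZ-R, and did not pass (log2 fold change 0.49 ± 0.251 SE, edgeR adjusted p = 0.110). Without NOZ replicate 2, its highest NOZ library, it was called higher, with a log2 fold change of 0.71. DNMT3L, a cofactor without catalytic activity, had 0 counts in every library.

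Ratios of values per length within 1 library do not depend on how libraries are scaled. The summed FPKM (fragments relative to transcript length and library size) of DNMT3A and DNMT3B over that of the 3 TET genes was 1.24, 1.08 and 1.25 in NOZ and 0.574, 0.476 and 0.487 in NOZ-R. All NOZ libraries lay above all NOZ-R libraries. The ratios here and below were chosen after the values were seen. This one holds DNMT3B and TET2, the largest fall and the largest rise, so its separation adds nothing to theirs. With DNMT1 in the numerator the ratio was 11.3, 9.26 and 11.2 in NOZ and 7.57, 6.82 and 6.78 in NOZ-R, again without overlap. Over all members, writers over erasers gave 1.18, 1.18 and 1.18 in NOZ and 1.31, 1.25 and 1.26 in NOZ-R. That difference was smaller, and on the CPM scale, which weights long transcripts more, the lines overlapped, at 1.25, 1.30 and 1.26 in NOZ and 1.36, 1.30 and 1.30 in NOZ-R.

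**Figure D2:**
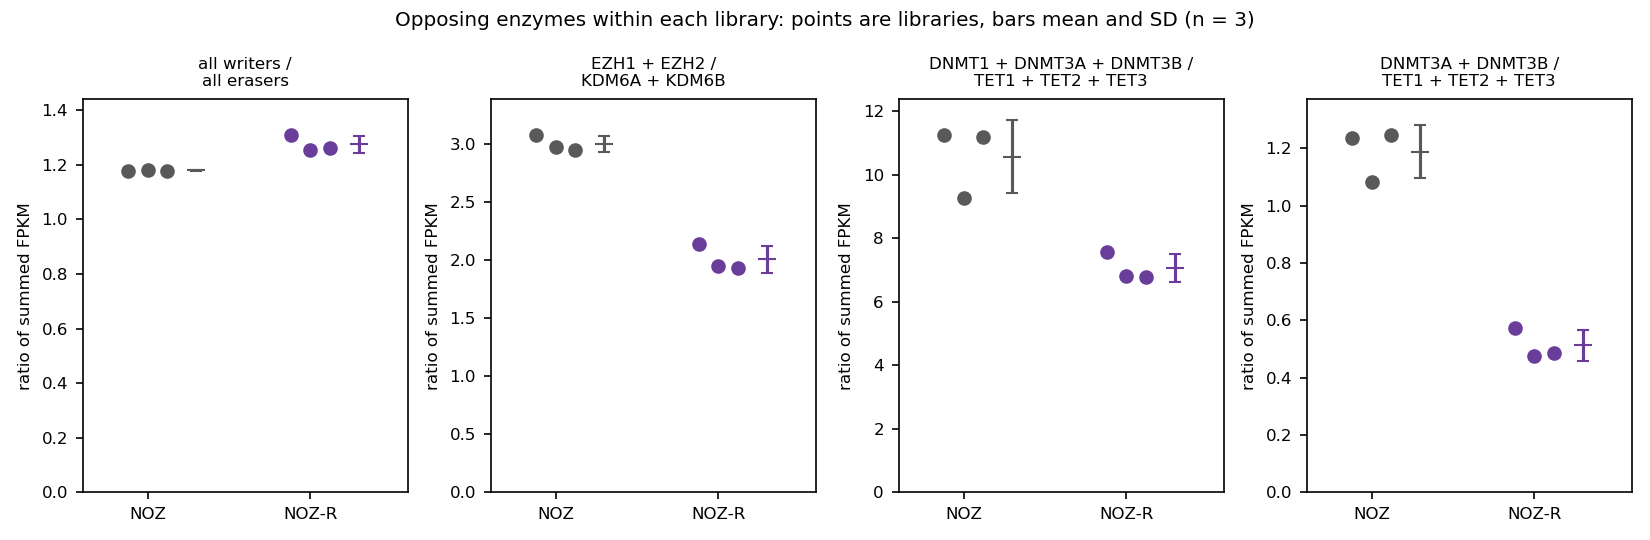
Ratio of summed FPKM of opposing enzymes in each library (points), with mean and SD beside (n = 3 per line), for 4 pairings chosen after the values were seen. The ratio of DNMT3A and DNMT3B to the TET genes fell from a mean of 1.19 to 0.512, while that of all writers to all erasers moved from 1.18 to 1.28.

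Both catalytic subunits of Polycomb repressive complex 2, which methylate H3K27, fell. EZH2 (chromosome 7, 148807383 to 148884321) measured 137, 137 and 134 CPM in NOZ and 84.6, 82.9 and 91.4 CPM in NOZ-R. No NOZ-R library reached the lowest NOZ library, a 1.58-fold fall (log2 fold change -0.66 ± 0.0602 SE, edgeR adjusted p = 5.82e-07). EZH1, the form that prevails in cells that do not divide, measured 30.2, 29.2 and 28.6 CPM in NOZ and 24.4, 22.5 and 24.5 CPM in NOZ-R, likewise without overlap (log2 fold change -0.30 ± 0.0792 SE, edgeR adjusted p = 0.00469). Of the demethylases that remove H3K27 methylation, KDM6A (UTX) measured 33.5, 35.8 and 39.4 CPM in NOZ and 25.3, 26.6 and 29.4 CPM in NOZ-R (log2 fold change -0.42 ± 0.0892 SE, edgeR adjusted p = 0.00112). Its libraries did not overlap, and it lies on X, whose genes are described further on. KDM6B (JMJD3) measured 32.0, 32.5 and 31.0 CPM in NOZ and 32.5, 34.3 and 38.1 CPM in NOZ-R and did not pass (log2 fold change 0.13 ± 0.0812 SE, edgeR adjusted p = 0.181). The ratio of EZH1 and EZH2 to KDM6A and KDM6B by FPKM was 3.08, 2.97 and 2.94 in NOZ and 2.14, 1.95 and 1.93 in NOZ-R, so every NOZ-R library lay below every NOZ library.

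Among enzymes that methylate H3K4 and their relatives, SETD1A, SETD1B, SETD7, KMT2B and KMT2D rose, while KMT2A, KMT2C and KMT2E fell. SETD1A, the catalytic subunit of a complex that methylates H3K4 at promoters, measured 39.4, 39.1 and 37.4 CPM in NOZ and 58.2, 64.1 and 61.7 CPM in NOZ-R (log2 fold change 0.66 ± 0.0696 SE, edgeR adjusted p = 2.12e-06). SETD1B rose by 0.36 and SETD7, a monomethyltransferase, by 0.50 in log2 units (edgeR adjusted p = 0.00118 and 1.08e-05). KMT2D (MLL4), which acts at enhancers, rose by 0.26, and KMT2B by 0.19 (edgeR adjusted p = 0.00205 and 0.0364). The KMT2B call was lost in 14 of 18 alternative settings, among them leaving out each library except NOZ replicate 3, and the KMT2D call in the fits with library size only and of FPKM. KMT2C (MLL3), the partner of KMT2D in enhancer methylation, measured 75.8, 90.6 and 76.7 CPM in NOZ and 45.0, 44.5 and 44.9 CPM in NOZ-R, a 1.81-fold fall without overlap (log2 fold change -0.86 ± 0.0775 SE, edgeR adjusted p = 5.29e-07). KMT2A (MLL1) fell by 0.26 (edgeR adjusted p = 0.00234). KMT2E, a SET domain protein for which little catalytic activity is known, measured 61.3, 81.4 and 63.5 CPM in NOZ and 34.7, 33.2 and 39.5 CPM in NOZ-R (log2 fold change -0.94 ± 0.107 SE, edgeR adjusted p = 4.32e-06). NOZ replicate 2 was the highest library for KMT2C and for KMT2E, and both calls were kept without it.

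The H3K4 demethylases KDM1A and KDM1B, flavin-dependent relatives of each other, changed in opposite directions. KDM1A (LSD1, chromosome 1, 23019443 to 23083689), the catalytic subunit of the CoREST corepressor, measured 305, 281 and 296 CPM in NOZ and 196, 187 and 185 CPM in NOZ-R, a 1.55-fold fall (log2 fold change -0.63 ± 0.0546 SE, edgeR adjusted p = 3.13e-07). KDM1B (LSD2, chromosome 6, 18155329 to 18223853) measured 20.8, 19.9 and 20.6 CPM in NOZ and 32.8, 36.8 and 35.5 CPM in NOZ-R, a 1.71-fold rise (log2 fold change 0.78 ± 0.0808 SE, edgeR adjusted p = 1.98e-06). Neither gene's libraries overlapped between the lines, and KDM1A remained the more abundant per length, at 9.86 FPKM ± 0.333 against 5.95 FPKM ± 0.325 in NOZ-R (SD, n = 3 each). In the KDM5 family, which removes H3K4 di- and trimethylation, KDM5C on X fell by 0.37 (edgeR adjusted p = 0.000497), while KDM5A and KDM5B had log2 fold changes of -0.05 and -0.01 that did not pass (edgeR adjusted p = 0.501 and 0.945). KDM5D, on Y, was not among the genes tested, and its level is not given.

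The demethylases of H3K9 and H3K36 went both ways. In the KDM4 family, KDM4D, a testis-enriched member, measured 1.997, 1.77 and 2.44 CPM in NOZ and 3.76, 4.27 and 4.16 CPM in NOZ-R (log2 fold change 0.98 ± 0.195 SE, edgeR adjusted p = 0.000658). KDM4B, a target of hypoxia signalling, rose by 0.52 and KDM4C fell by 0.42 (edgeR adjusted p = 2.73e-05 and 0.000285), while KDM4A, at -0.08, did not pass (edgeR adjusted p = 0.653). KDM4E and KDM4F, intronless relatives of KDM4D, had 0 counts in every library. KDM3B fell by 0.36 and KDM3A rose by 0.20 (edgeR adjusted p = 5.39e-05 and 0.0246). The KDM3A call was lost in 9 of 18 alternative settings, among them leaving out NOZ replicate 1, NOZ-R replicate 2 or NOZ-R replicate 3. KDM2A and KDM2B, which act on H3K36, had log2 fold changes of -0.04 and -0.17 and did not pass (edgeR adjusted p = 0.506 and 0.0767). KDM7A, which acts on H3K9 and H3K27, rose by 0.39 (edgeR adjusted p = 0.00826), a call lost with library size only and in the FPKM fits. KDM8 (JMJD5, chromosome 16, 27203495 to 27221768), a JmjC hydroxylase of low level, measured 1.30, 1.33 and 1.63 CPM in NOZ and 3.70, 3.34 and 3.02 CPM in NOZ-R, a 2.39-fold rise (log2 fold change 1.26 ± 0.218 SE, edgeR adjusted p = 0.000214). Its exons share 585 bases with an annotated antisense transcript. Over the whole KDM family, 6 of 17 tested genes were higher, 5 lower and 6 did not pass, with a median of -0.04. The share called was 64.7%, against 60.2% of all genes tested.

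The remaining lysine methyltransferases, of H3K36, H4K20 and other substrates, went both ways. SETD2, the main enzyme of H3K36 trimethylation, fell by 0.23 (edgeR adjusted p = 0.0106). Its call did not hold in 4 of 18 alternatives, among them leaving out NOZ-R replicate 1 or 2. SETD5 fell by 0.38 (edgeR adjusted p = 9.33e-05). SETD3, which methylates actin, SETD4, SETD6 and SETD9 had log2 fold changes between -0.12 and 0.03 and did not pass. The H4K20 enzymes differed among themselves. KMT5C measured 6.39, 5.82 and 5.62 CPM in NOZ and 3.93, 4.27 and 2.88 CPM in NOZ-R (log2 fold change -0.68 ± 0.170 SE, edgeR adjusted p = 0.00344), a fall without overlap at a low level. Its close relative KMT5B rose by 0.25 (edgeR adjusted p = 0.0132). Its call did not hold in 5 of 18 alternatives, among them leaving out NOZ-R replicate 3, and the monomethyltransferase KMT5A, at 0.10, did not pass (edgeR adjusted p = 0.180).

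All 7 tested genes with a PRMT symbol had positive log2 fold changes under the TMM scaling, from 0.08 to 0.97. Of these 7, 4 rose, PRMT6, PRMT7, PRMT3 and PRMT2, and 3, PRMT1, PRMT5 and PRMT9, did not pass. Their share called was 57.1%, against 60.2% of all genes tested. CARM1, an arginine methyltransferase with another symbol, went the other way and fell by 0.38 (edgeR adjusted p = 0.000213). It was named after its value was seen. PRMT6 (chromosome 1, 107056679 to 107067636), which places asymmetric dimethylation on H3 arginine 2, measured 18.1, 16.8 and 18.3 CPM in NOZ and 35.5, 34.3 and 34.5 CPM in NOZ-R, a 1.96-fold rise in which the lowest NOZ-R library lay far above the highest NOZ library (log2 fold change 0.97 ± 0.0794 SE, edgeR adjusted p = 1.89e-07). PRMT7, a monomethyltransferase, rose by 0.52, PRMT3, which acts on a ribosomal protein, by 0.46 and PRMT2 by 0.30 (edgeR adjusted p = 0.000590, 0.000130 and 0.00217). The PRMT2 call was lost in the FPKM fits and after removal of chromosome medians. PRMT1, the main asymmetric enzyme and the most abundant member of all per length at 64.3 FPKM ± 5.34 in NOZ and 63.8 FPKM ± 1.13 in NOZ-R (SD, n = 3 each), did not pass (log2 fold change 0.12 ± 0.0625 SE, edgeR adjusted p = 0.125). PRMT5, the main symmetric enzyme, measured 37.6, 29.1 and 33.3 CPM in NOZ and 39.97, 32.9 and 32.6 CPM in NOZ-R, with overlapping libraries (log2 fold change 0.08 ± 0.107 SE, edgeR adjusted p = 0.553). With library size as the only scaling, PRMT1, PRMT5 and PRMT9 had log2 fold changes of -0.0129, -0.0514 and 0.0415. PRMT8, a neuronal form, had 0 counts in every library.

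Among the acetyltransferases the 2 paralogues of the GCN5 family rose and the MYST paralogues KAT6A and KAT6B fell. KAT2B (PCAF) measured 23.4, 28.6 and 25.2 CPM in NOZ and 43.3, 38.7 and 43.6 CPM in NOZ-R (log2 fold change 0.70 ± 0.0910 SE, edgeR adjusted p = 1.56e-05), and KAT2A (GCN5) rose by 0.34 (edgeR adjusted p = 0.00214). KAT6B (MORF) measured 71.8, 83.1 and 65.9 CPM in NOZ and 46.9, 47.9 and 47.7 CPM in NOZ-R (log2 fold change -0.63 ± 0.0826 SE, edgeR adjusted p = 1.73e-05), and KAT6A (MOZ) fell by 0.43 (edgeR adjusted p = 0.000168). NOZ replicate 2 was the highest library for KAT6B, and its call was kept without that library but lost after removal of chromosome medians. KAT14, a subunit of the ATAC complex, measured 48.4, 42.0 and 47.0 CPM in NOZ and 27.4, 28.4 and 25.8 CPM in NOZ-R (log2 fold change -0.75 ± 0.0814 SE, edgeR adjusted p = 2.94e-06), and its gene model shares 712 exonic bases with PET117 on the same strand. KAT5 (TIP60), KAT7 (HBO1) and KAT8 (MOF) had log2 fold changes of 0.29, -0.14 and 0.12 and did not pass (edgeR adjusted p = 0.0853, 0.0607 and 0.228). KAT7 was called lower in 8 of 19 alternative settings and KAT5 higher in 2, among them leaving out NOZ replicate 2 for KAT7 and NOZ-R replicate 3 for KAT5.

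The deacetylases HDAC1 and HDAC2, which form the core of several corepressor complexes, did not pass. HDAC1 measured 241, 216 and 224 CPM in NOZ and 218, 227 and 218 CPM in NOZ-R (log2 fold change -0.04 ± 0.0571 SE, edgeR adjusted p = 0.582), and HDAC2 195, 212 and 188 CPM in NOZ and 203, 215 and 221 CPM in NOZ-R (log2 fold change 0.10 ± 0.0613 SE, edgeR adjusted p = 0.168). Both overlapped between the lines. HDAC1 was called lower in 5 of 19 alternative settings, among them library size only (log2 fold change -0.17) and removal of chromosome medians (-0.21). HDAC2 was called higher without NOZ replicate 2, with a log2 fold change of 0.15. HDAC3, also a class I enzyme, had a log2 fold change of 0.18 and did not pass (edgeR adjusted p = 0.0526). HDAC8, the cohesin deacetylase on X, fell by 0.60, and HDAC6, a cytoplasmic tubulin deacetylase also on X, by 0.42 (edgeR adjusted p = 0.000260 and 0.000587). Of the class IIa enzymes, HDAC4 rose by 0.37 and HDAC9 fell by 0.20 (edgeR adjusted p = 0.00214 and 0.0321), the latter call lost in 6 of 18 settings, among them removing chromosome medians and leaving out NOZ replicate 1, NOZ-R replicate 1 or NOZ-R replicate 2. The HDAC4 call was lost in the FPKM fits and after removal of chromosome medians. HDAC5 and HDAC7, at -0.22 and -0.12, did not pass (edgeR adjusted p = 0.0612 and 0.277), and both were called lower without NOZ replicate 2, with log2 fold changes of -0.30 and -0.20. HDAC11, the class IV enzyme, measured 3.35, 3.27 and 3.52 CPM in NOZ and 5.69, 4.40 and 5.16 CPM in NOZ-R, a rise at a low level (log2 fold change 0.59 ± 0.166 SE, edgeR adjusted p = 0.00695). HDAC10 had counts of 5, 2 and 6 in NOZ against 8, 3 and 5 in NOZ-R, too few to be tested, and its gene model shares 2763 exonic bases with MAPK12.

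The sirtuins are NAD-dependent deacylases. Of 6 tested, SIRT7, a nucleolar enzyme, rose by 0.41 (edgeR adjusted p = 0.000847) and 5 did not pass, a share of 16.7% called where 60.2% of all genes tested were. SIRT1 measured 33.0, 40.4 and 37.1 CPM in NOZ and 34.4, 37.8 and 36.6 CPM in NOZ-R, with the 2 lines interleaved (log2 fold change -0.02 ± 0.0871 SE, edgeR adjusted p = 0.853). The mitochondrial SIRT3 and SIRT5, the cytoplasmic SIRT2 and the chromatin-bound SIRT6 had log2 fold changes of -0.19, 0.14, -0.18 and -0.07, none of which passed (lowest edgeR adjusted p = 0.154). SIRT2 was called lower without NOZ replicate 2, at -0.28. SIRT4 had counts of 5, 6 and 6 in NOZ against 1, 4 and 0 in NOZ-R, too few to be tested.

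**Figure D3:**
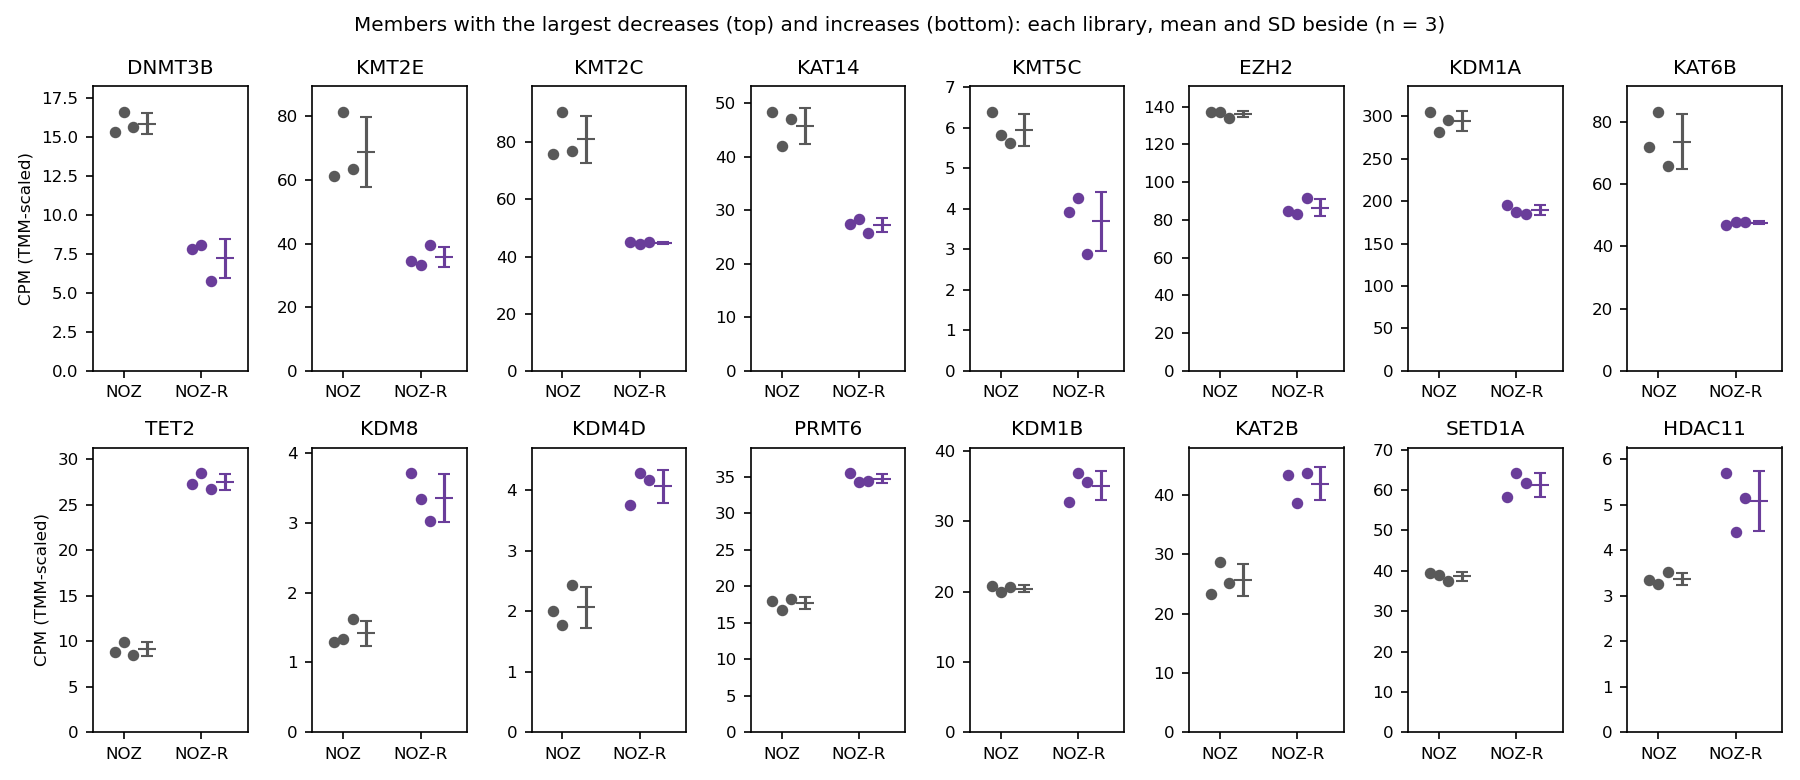
CPM in each library (points; NOZ grey, NOZ-R purple), with mean and SD beside (n = 3 per line), of the 8 members with the largest decreases (top row) and the 8 with the largest increases (bottom row) among called members without overlap. The 3 NOZ-R libraries of TET2 lie between 26.7 and 28.4 CPM and the 3 NOZ libraries at 9.97 CPM or below.

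Several of the decreases lay on chromosomes where most or many genes tested were called lower. All 4 tested members on X, KDM5C, KDM6A, HDAC6 and HDAC8, fell, by 0.37 to 0.60 on the log2 scale, where the median of the 428 tested X genes was -0.44 and 61.2% of them were called lower. On chromosome 7, where the median was -0.29 and 46.9% were called lower, KMT2E, KMT2C, EZH2 and HDAC9 fell and KDM7A rose. The tested genes within 5 Mb of EZH2, KMT2C and KMT2E had medians of -0.51, -0.64 and -0.53. KDM4C on chromosome 9 fell by 0.42 where that chromosome's median was -0.64, and KAT6B on chromosome 10 by 0.63 where it was -0.60. SIRT1 and TET1, also on chromosome 10, had log2 fold changes of -0.02 and 0.49 that did not pass. TET2, PRMT6 and KDM1B lay among neighbours with medians of 0.17, 0.20 and 0.34, DNMT3B at -0.12, and KDM1A at 0.09. Over the 73 members the correlation of a gene's log2 fold change with its neighbours' median was 0.440 (Pearson's r across genes, which share the 6 libraries and are not replicates), and 30 of the 43 called members had the sign of their neighbours. Neither value was computed over all genes tested, so neither sets the members apart from other genes. With chromosome medians removed, KDM5C, KDM6A, HDAC6 and HDAC9 had log2 fold changes of 0.0714, 0.0249, 0.0228 and 0.0889 and were no longer called, HDAC8 and KAT6B lost their calls at -0.16 and -0.0365, and KDM4C was called higher at 0.22. EZH2, KMT2C, KMT2E, KDM1A and DNMT3B remained called lower, at -0.37, -0.57, -0.65, -0.80 and -1.05. SIRT1 was then called higher at 0.58 as was TET1 at 1.08, and HDAC2 lower at -0.23. For chromosome 7 the value removed was -0.29, a smaller shift than the medians of -0.51, -0.64 and -0.53 near EZH2, KMT2C and KMT2E. Whether EZH2, KMT2C and KMT2E fell more than their neighbours within 5 Mb was therefore not tested. Gene copy number was not measured.

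**Figure D4:**
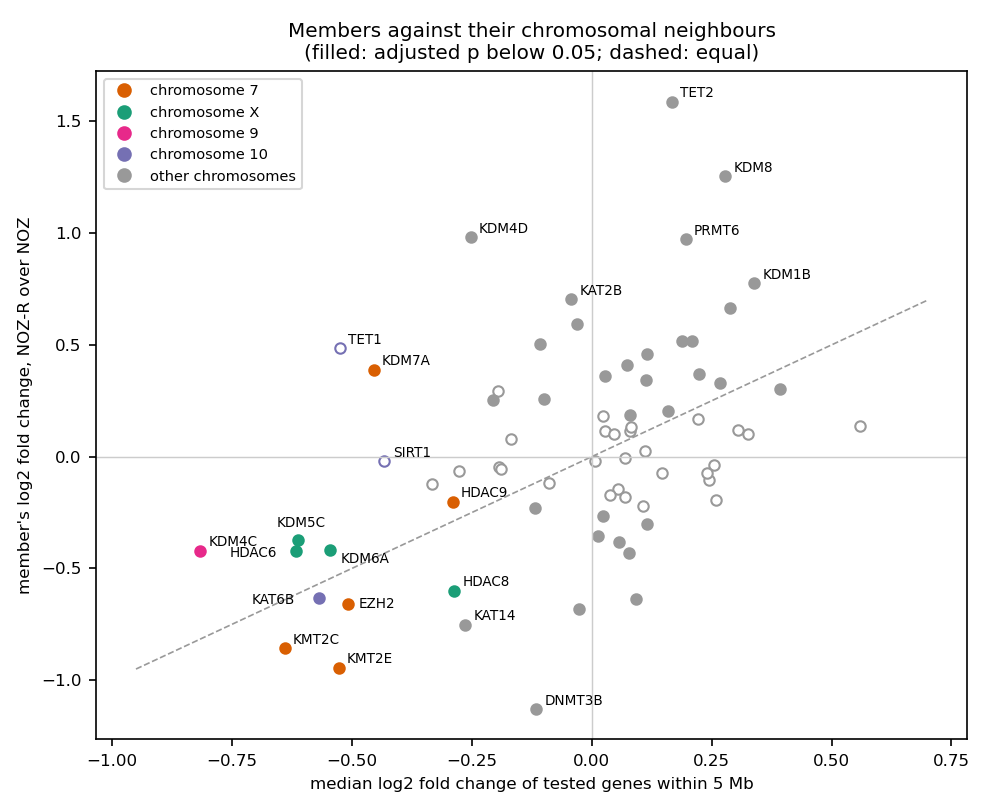
Log2 fold change of each tested member (vertical) against the median of the tested genes within 5 Mb of it (horizontal), coloured for chromosomes 7, 9, 10 and X and filled where the adjusted p was below 0.05. Members on X, and KMT2C, KMT2E and EZH2 on 7, sit among neighbours with medians below 0, whereas TET2 (1.59) and DNMT3B (-1.13) lie far from their neighbours' medians of 0.17 and -0.12.

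Enzymes of the same kinds with other symbols also moved both ways. Of 32 such writers and erasers tested, 11 were higher, 10 lower and 11 did not pass, with a median of -0.04. Their share called was 65.6%, against 60.2% of all genes tested. NCOA1, a nuclear receptor coactivator with acetyltransferase activity, rose by 2.09 ± 0.0984, from 6.71 CPM ± 0.496 to 28.4 CPM ± 0.737, and TDG, the glycosylase that excises the products of TET oxidation, rose by 1.05 ± 0.0721, from 27.6 CPM ± 1.36 to 56.9 CPM ± 0.931 (log2 fold change ± SE, then SD, n = 3 each, edgeR adjusted p = 7.68e-10 and 3.45e-08). JMJD1C, a JmjC relative of KDM3A on chromosome 10, changed by -1.42 and the H3K9 demethylase PHF8 on X by -1.15 (edgeR adjusted p = 3.16e-07 and 1.65e-07). JMJD1C was highest in NOZ replicate 2, with counts of 3069, 3921 and 2295 in NOZ against 1075, 1021 and 1104 in NOZ-R.

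Subunits that do not themselves carry the catalytic site moved both ways. Of 22 tested subunits of Polycomb repressive complex 2 and of the H3K4 methyltransferase complexes, 5 were higher, 7 lower and 10 did not pass (median 0.05). Their share called was 54.5%, against 60.2% of all genes tested. The core Polycomb subunits EED and SUZ12, partners of EZH2, had log2 fold changes of 0.18 and -0.01 and did not pass (edgeR adjusted p = 0.0581 and 0.959). Of the histone-binding core subunits, RBBP7, on X, fell by 0.86, and RBBP4, at 0.12, did not pass (edgeR adjusted p = 4.18e-08 and 0.0852). These 4 were named after their values were seen. CXXC1, the CpG-binding subunit of the SETD1 complexes, rose by 0.58 and PHF1 by 0.44, while PSIP1, on chromosome 9, and PAXIP1, on chromosome 7, changed by -0.95 and -0.91 (largest edgeR adjusted p = 0.000824). Of 31 corepressor subunits, 7 were higher, 8 lower and 16 did not pass (48.4% called, median -0.03), with the NuRD helicase CHD3 at 0.56, RCOR2 at -0.96 and SUDS3 at -0.50. Of 36 acetyltransferase complex subunits, 14 were higher, 6 lower and 16 did not pass (55.6% called, median 0.15), with EPC2 at 0.66, JADE2 at 0.55, and JADE3 and MSL3, both on X, at -1.14 and -0.69. The 7 genes named for these last lists all passed (largest edgeR adjusted p = 0.000475).

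Readers of DNA methylation and its cofactors included 9 higher and 5 lower of 18 tested, with a median of 0.22, the same with CXXC4 at its lower bound. Their share called was 77.8%, against 60.2% of all genes tested (30.4% higher and 29.8% lower). CXXC5, a CpG-binding protein, rose by 1.23 (edgeR adjusted p = 1.36e-07). CXXC4, which lies near TET2 on chromosome 4 and binds its protein, had counts of 0, 0 and 0 in NOZ against 13, 33 and 22 in NOZ-R, at least 24.4-fold higher against a floor of 3 counts over the NOZ libraries. UHRF2, on chromosome 9, and HELLS, the chromatin remodeller that assists de novo methylation, on chromosome 10, changed by -0.91 and -0.81 (edgeR adjusted p = 1.59e-07 and 2.65e-07). UHRF1, which recruits DNMT1 and was named after its value was seen, rose by 0.40 (edgeR adjusted p = 3.72e-05).

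Among 23 tested genes that supply or use the cofactors of these enzymes, 7 were higher, 9 lower and 7 did not pass (median -0.12). Their share called was 69.6%, against 60.2% of all genes tested. NNMT, which methylates nicotinamide at the cost of S-adenosylmethionine, the methyl donor, had counts of 0, 0 and 1 in NOZ against 114, 116 and 90 in NOZ-R, a ratio of 344 with an exact 95% counting interval of 61.3 to 13633. NAMPT, the rate-limiting enzyme of NAD salvage on which sirtuins depend, fell from a mean of 271 CPM ± 28.8 to 132 CPM ± 10.8 (SD, n = 3 each), -1.04 ± 0.0797 as a log2 fold change (SE, edgeR adjusted p = 1.02e-07). NAPRT, of the other NAD salvage route, rose by 1.12, and IDH2, a mitochondrial source of the 2-oxoglutarate that TET and JmjC enzymes consume, changed by -1.39 (edgeR adjusted p = 7.01e-06 and 1.32e-07). NAMPT lies on chromosome 7, and NAPRT on chromosome 8.

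Germline genes that are methylated in most somatic cells were measured beside the DNA methylation enzymes. Of 38 genes, 16 had 0 counts in all 6 libraries and 4 passed the count filter. Among those 4, the 3 MAGEA genes on X rose and RNF212, at -0.12, did not pass (edgeR adjusted p = 0.283). MAGEA6 rose from a mean of 0.5002 CPM ± 0.135 to 35.5 CPM ± 2.11 (SD, n = 3 each), 6.15 ± 0.161 as a log2 fold change (SE, edgeR adjusted p = 1.91e-12). MAGEA1 had counts of 0, 0 and 0 in NOZ against 15, 17 and 11 in NOZ-R, at least 15.4-fold higher, and MAGEA3 counts of 68, 39 and 40 in NOZ against 845, 833 and 705 in NOZ-R. MAGEA3 and MAGEA6 are near-identical copies, so their shares of the reads are uncertain. DAZL, SOHLH2, DPPA3, MAEL, GAGE1 and GAGE2A, named after their values were seen, had 0 counts in every library. A gene at 0 in NOZ passes the filter only where it is high in NOZ-R, so the tested genes do not stand for the list.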

How the data were processed

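Polyadenylated RNA of 3 NOZ and 3 NOZ-R libraries was sequenced, and samples were grouped by title. The authors deposited raw counts per gene, as whole numbers, for 63140 genes. They also deposited FPKM for these genes, each equal to the count over the library total and 1 fixed length per gene. Reads were handled with fastp 0.22.0 and GRCh38 was used, per the submitters' processing notes. The aligner, counter, strand setting and annotation release were not given in the sources used here. From the counts, edgeR 4.0.16 (R 4.3.3) gave filterByExpr filtering, TMM factors (NOZ 1.04 to 1.05, NOZ-R 0.954 to 0.961) and quasi-likelihood tests, with Benjamini-Hochberg adjustment over all 14386 genes tested and a threshold of 0.05. The SE is the absolute log2 fold change over the square root of F. Code was tested on simulated data. Library totals ran from 14136037 to 19244923, and floors and intervals cover counting error only. Mean chi-square per gene between replicates was 2.17 to 11.3, above sampling noise, so all 6 libraries were kept. Positions and exons came from GENCODE 29, matched by symbol for 80 of 80 members, and promoters from RefSeq.

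The results were recomputed with other scalings (size factors of DESeq2, upper quartile, none beyond library size), other filters (none, or 1 CPM in at least 3 libraries), DESeq2 1.42.0, and limma 3.58.1 on FPKM with pseudocounts of 1 and 0.1. Further refits used a replicate block, 0.01 as threshold, a 2-fold null, loess GC correction (span 0.3), removed chromosome medians, or 5 of the 6 libraries. Values per library are printed for the 8 largest increases and 8 largest decreases among called members of at least 1 CPM without overlap, and for 15 fixed genes. From each list, up to 2 increases and 2 decreases are named, except for 1 gene that is not reported here. Members and lists were chosen with earlier results of these data known, and the 5 Mb windows, ratios, promoter motifs and mark groupings after seeing the values. Tables and figures used Python 3.11.15, pandas 2.3.3 and matplotlib 3.10.9.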

Additional observations from a re-analysis of the deposited data

How the results depend on the processing

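Called members numbered 43, of which 27 kept their call and direction in each of the 18 alternatives other than the test against a 2-fold change, and 16 did not in at least 1. Of the 30 uncalled, 20 were called in at least 1 of the 19 alternatives. The test against a 2-fold change called 1289 genes (847 higher, 442 lower), of them 1 member, the eraser TET2 (1 higher), with 0 members lower and 0 writers, 0 of them higher and 0 lower (edgeR's glmTreat, with 0 writers at an unadjusted p below 0.05 and no other tool run). The limma fits of FPKM called 15 members higher, 7 of them erasers, with either pseudocount. After GC correction 31 members were lower, 16 of them erasers, and with library size only 16 erasers were lower. The median log2 fold change of all genes tested was -0.14 with library size only, -0.08 and -0.13 in the FPKM fits and -0.08 after GC correction, against -0.01, and the cause was not tested. Over all genes the split moved from 4379 higher and 4284 lower to 3316 and 5468 with library size only. It was 3990 and 5211 after GC correction. In the FPKM fits it was 3219 and 5298 with a pseudocount of 1, and 3237 and 5317 with 0.1. Leaving out each library in turn gave 39 to 48 called members. Removal of chromosome medians reversed HDAC6 (0.0228), HDAC9 (0.0889), KDM4C (0.22), KDM5C (0.0714), KDM6A (0.0249), HDAC2 (-0.23) and SIRT1 (0.58), by its construction. With the replicate number as a block 43 members were called, 23 higher and 20 lower, and it changed no member's call. The deviations of same-numbered libraries correlated at 0.0682, -0.0224 and -0.0365, and the samples share only a number. Depth limits DNMT3L, PRMT8, HDAC10, SIRT4, KDM4D, KDM4E, KDM4F, KDM8 and TET1.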
